A study of Mus musculus with 4 samples.

Results

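The genes that mark microglia at rest were followed through the 4 libraries by their symbols: Tmem119, P2ry12, P2ry13, Cx3cr1, Csf1r, Siglech, Sall1, Selplg and Gpr34, which are 9 of the 32285 features in the deposited matrices. All 9 had at least 299 UMIs (unique molecular identifiers, 1 per captured RNA molecule) in the microglia of every library. Single cells came from whole cerebella of wild-type (WT) and Eftud2 cKO mice aged 10 or 14 postnatal days (P10, P14). Each genotype had 1 library at each age. The Eftud2 protein is a spliceosomal GTPase, and the title of the series places its loss in Purkinje neurons, which carry the output of the cerebellum. The labels name no Cre driver, floxed exon, strain or sex, and they do not say how many animals went into a library.

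Microglia are the resident macrophages of the brain parenchyma. They depend on signalling through the receptor Csf1r and on transforming growth factor beta, and the regulator Sall1 helps to keep their identity apart from that of other macrophages. Their resting gene set holds receptors that sense nucleotides, chemokines and lipids, and it is known to fall when microglia take on phagocytic or inflammatory states. Border macrophages of the meninges and vessels share the complement genes C1qa, C1qb and C1qc with microglia but carry less of this set.

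Microglia were gated on C1qa, C1qb, C1qc and Ctss, so that no member defined the cells: UMIs of at least 3 of these 4 genes, making up at least 0.2% of a cell's UMIs. Cells that also held at least 3 of 7 border genes (Mrc1, Pf4, Cd163, Lyve1, F13a1, Cbr2 and Ms4a7) at 0.1% of UMIs were set apart as border macrophages. This gave 1156, 163, 629 and 379 microglia in the P10 libraries (WT, then cKO) and the P14 libraries (WT, then cKO), of 14280, 6593, 15395 and 6308 cells kept. The border genes summed to at most 133 CPM (UMIs of a gene scaled to a fixed total of all UMIs) in the gated microglia, against at least 15209.9 CPM in the border macrophages. This contrast follows from the gate, which uses the same genes. No UMI of any border gene was found in 655, 98, 517 and 265 of the microglia, in the library order just given. Microglia had median depths of 6980.5, 10966, 8358 and 16165 UMIs per cell in that order. The P10 WT matrix was written by Cell Ranger 5.0.0, P10 cKO by 7.0.1 and both P14 matrices by 7.1.0, so at P10 the genotype cannot be told apart from the program version. Sex cannot be told apart from genotype at P10 either: Xist stood at 0.53 CPM and the Y-linked Ddx3y at 59.7 CPM over all P10 cKO cells, against 1226 and 0.013 CPM over all P10 WT cells. Eftud2 itself was at 29.0 to 30.7 CPM in the microglia of all 4 libraries. Between 7 and 76 cell barcodes were shared by any pair of libraries, among them 1 microglia barcode, in the P10 pair.

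Promoter windows are shown for 4 members, because the neighbours P2ry12 and P2ry13 were both lower in P14 cKO microglia, and because Siglech and Sall1 show the range of sequence among the members. The windows run from 250 bases before the RefSeq start site to 50 after it (GRCm38.p6, 5′ to 3′ on the gene's strand). Capitals mark GAGGAA, the core to which the macrophage factor Spi1 (PU.1) is known to bind, found on either strand; in Siglech it lies on the other strand and reads TTCCTC.
P2ry13, chr3:59210833-59211132, minus strand: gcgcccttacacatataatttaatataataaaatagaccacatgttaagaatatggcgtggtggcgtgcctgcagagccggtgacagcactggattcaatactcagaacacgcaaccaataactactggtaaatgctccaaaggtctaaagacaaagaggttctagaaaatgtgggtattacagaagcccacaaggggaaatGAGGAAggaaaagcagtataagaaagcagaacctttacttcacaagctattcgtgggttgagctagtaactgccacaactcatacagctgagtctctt
P2ry12, chr3:59262936-59263235, minus strand: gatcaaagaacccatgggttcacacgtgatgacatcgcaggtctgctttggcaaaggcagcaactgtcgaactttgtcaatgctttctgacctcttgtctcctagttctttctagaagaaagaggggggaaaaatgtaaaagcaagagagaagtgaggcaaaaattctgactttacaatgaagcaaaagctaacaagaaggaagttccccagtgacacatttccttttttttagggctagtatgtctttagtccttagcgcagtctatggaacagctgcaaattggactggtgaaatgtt
Siglech, chr7:55767934-55768233, plus strand: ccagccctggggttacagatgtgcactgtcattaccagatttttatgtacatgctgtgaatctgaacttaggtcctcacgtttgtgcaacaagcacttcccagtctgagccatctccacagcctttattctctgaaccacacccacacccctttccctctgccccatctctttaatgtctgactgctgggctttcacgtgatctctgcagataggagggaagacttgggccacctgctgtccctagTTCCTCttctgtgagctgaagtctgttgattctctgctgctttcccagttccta
Sall1, chr8:89044113-89044412, minus strand: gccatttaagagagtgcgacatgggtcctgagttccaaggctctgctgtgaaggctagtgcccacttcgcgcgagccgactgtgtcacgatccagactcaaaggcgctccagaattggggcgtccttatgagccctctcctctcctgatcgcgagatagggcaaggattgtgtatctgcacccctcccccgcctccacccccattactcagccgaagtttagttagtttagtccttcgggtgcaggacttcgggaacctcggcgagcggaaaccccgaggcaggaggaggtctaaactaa
The Sall1 window is the first of 3 in the table, the one whose start site equals the GENCODE start. The RefSeq table held windows for 5 of the 9 members, and 2 of these 5 had the motif, starting 48 bases before the start site in P2ry13 and 4 bases before it in Siglech. Of all 32851 windows of this length, 28.3% held it. The windows of P2ry12, Cx3cr1 and Sall1 did not hold these letters. The Sall1 window shown had 18 CpG dinucleotides, against 6 in P2ry13, 4 in P2ry12, 5 in Cx3cr1 and 2 in Siglech, and a median of 7 over all windows. The other Sall1 windows had 27 and 39. Tmem119, Csf1r, Selplg and Gpr34 were not in the table.

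In GENCODE vM21 (GRCm38) the members lie on 7 chromosomes. P2ry12 (chr3:59216272-59262871) and P2ry13 (chr3:59207892-59210882) stand 5389 bases apart on the minus strand, both inside Med12l (chr3:59005825-59318682), which runs on the plus strand. Tmem119 (chr5:113793729-113800516) and Selplg (chr5:113818536-113832644) are also neighbours, 18019 bases apart. The other members are Cx3cr1 (chr9:119901616-120069879), Csf1r (chr18:61100598-61132149), Siglech (chr7:55768178-55778925), Sall1 (chr8:89027235-89044162) and Gpr34 on the X chromosome (chrX:13632089-13640858).

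All 9 members were found in the microglia of all 4 libraries, and 8 of the 9 were several times higher there than in border macrophages. Levels are CPM of the pooled UMIs of all cells of a class in a library. They are compared between classes or libraries and never between genes, since 3′ counts are not scaled to transcript length. With 1 library per group, intervals are exact 95% intervals that cover counting error only. Sall1, the zinc-finger regulator of microglial identity, stood at 242, 232, 179 and 158 CPM in microglia, in the library order given above. It was thus higher in both P10 libraries than in both P14 libraries. Csf1r, the receptor for the growth factors Csf1 and Il34, stood at 2140, 1831, 1664 and 1766 CPM in the same order. Cx3cr1, the receptor for the neuronal chemokine fractalkine, was at 2577, 2233, 1860 and 1823 CPM. Both P10 libraries lay above both P14 libraries for Csf1r and for Cx3cr1 as well.

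Among the receptors for nucleotides and lipids, P2ry12, an ADP receptor that guides microglial processes to sites of damage, was at 1446, 1401, 1251 and 853 CPM. P14 cKO was the lowest of the 4. P2ry13, a further ADP receptor, was at 228, 170, 170 and 110 CPM, again with P14 cKO lowest and with P10 cKO and P14 WT alike. Gpr34, a receptor for lysophosphatidylserine, was at 1011, 759, 794 and 726 CPM, highest in P10 WT. Of the other surface proteins, Tmem119, a membrane protein used as a microglia marker, was at 353, 230, 439 and 212 CPM. Both cKO libraries lay below both WT libraries. Selplg, the ligand of P-selectin, was at 559, 421, 764 and 480 CPM, with the same order of genotypes. Siglech, of the family of lectins that bind sialic acid, was at 679, 525, 533 and 474 CPM, highest in P10 WT.

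**Figure D1:**
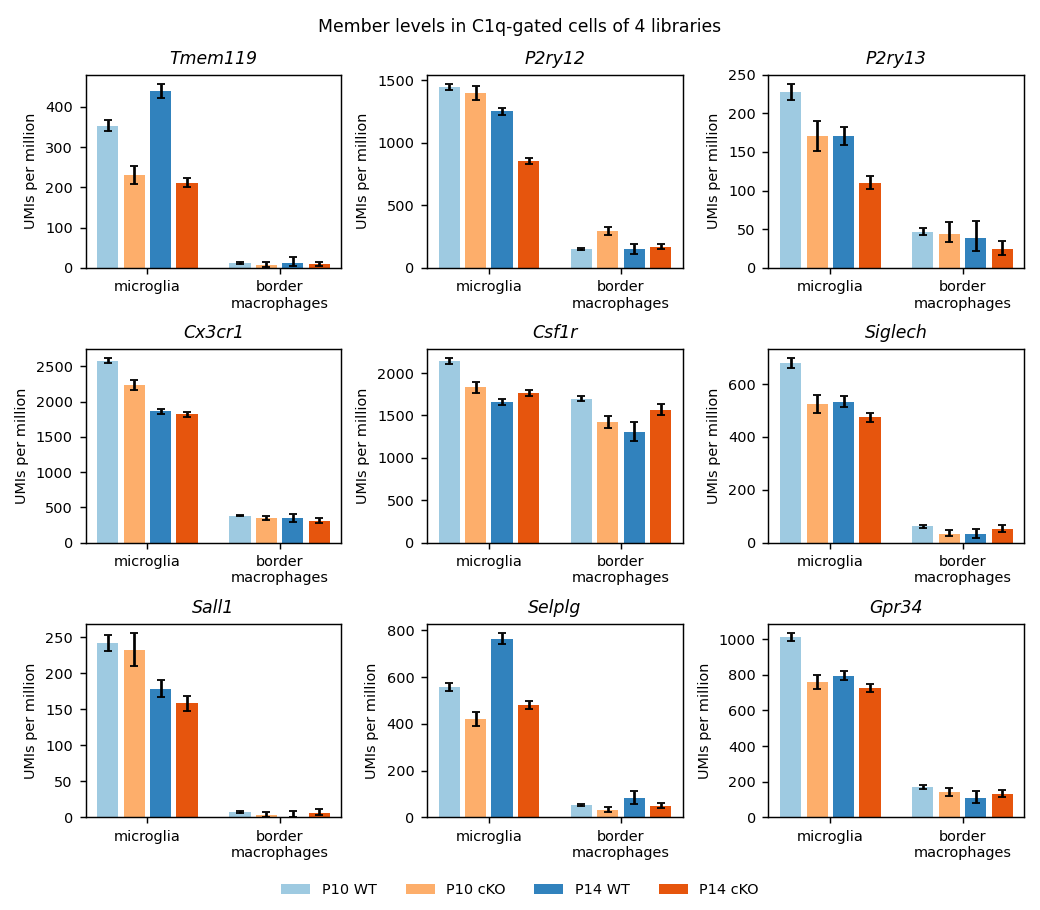
Level of each member (y axis, CPM) in C1q-gated microglia and border macrophages, 1 bar per library (from left to right WT and cKO at P10, then WT and cKO at P14) with its exact 95% counting interval. Microglia lie above border macrophages for 8 members without overlap, while the Csf1r bars of the classes overlap (1664 to 2140 against 1307 to 1697 CPM).

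Border macrophages numbered 1282, 113, 57 and 138 and served as the nearest other cell type. Both kinds came from the same libraries, and the test was edgeR's quasi-likelihood test on the summed counts with the library as a block, Benjamini-Hochberg adjusted over 12235 genes. It called 8 of 9 members higher in microglia, and 16.4% of all genes were called higher. The log2 fold changes were 5.22 (SE 0.23, adjusted p = 1.3e-08 in edgeR) for Sall1 and 4.85 (SE 0.15, adjusted p = 1.3e-09 in edgeR) for Tmem119. Border macrophages held 7.2, 2.7, 0 and 5.9 CPM of Sall1. With the 0 of P14 WT set to 3 counts, Sall1 was at least 26.6-fold higher in the microglia of that library. Tmem119 was at 7.2 to 11.7 CPM in border macrophages, below its lowest microglia level of 212 CPM. Siglech, Selplg, P2ry12, Cx3cr1, Gpr34 and P2ry13 had log2 fold changes of 3.52, 3.37, 2.66, 2.53, 2.50 and 2.09. Csf1r was the exception, at 1307 to 1697 CPM in border macrophages and a log2 difference of 0.23 (SE 0.097, adjusted p = 0.090 in edgeR). DESeq2, the restriction to microglia with no border UMI, and the fit without P14 cKO each called Csf1r as well.

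In the other 7 classes compared, every member stood at 59.4 CPM or less, apart from Selplg in lymphoid cells. As a measure of free RNA, the 4 gate genes were summed in each class. A member was set against the level it would have at its microglial ratio to them. Border macrophages outnumbered microglia in P10 WT (1282 against 1156). Over the 4 libraries they held nearly as much of the gate genes (13159 to 16437 CPM against 14890 to 19343 CPM) but less of most members. Free RNA from border macrophages would set that level too high, and its part was not tested. P2ry13 and Siglech did not exceed that level beyond counting error in any library of these 7 classes, with at most 2.1 and 4.1 CPM. Blood myeloid cells had only 16 cells in P10 cKO and 23 to 137 in the other libraries, and they were not among the 7. In them Siglech exceeded that level in P10 WT (38.2 CPM), P14 WT (367 CPM) and P14 cKO (180 CPM), and Csf1r and Selplg exceeded it in all 4 libraries. Tmem119 exceeded it in the fibroblasts of all 4 libraries, at 45.0 to 59.4 CPM, and its fibroblast levels lay above those of border macrophages without overlap. Sall1 exceeded it in all 4 libraries in the oligodendrocyte lineage, at 13.2 to 34.1 CPM, and in fibroblasts, at 12.4 to 26.0 CPM. Those ranges overlap each other and both lie above the border macrophages. Selplg exceeded it in the lymphoid cells of all 4 libraries, at 116 to 281 CPM, as the known selectin ligand of leukocytes, and again above border macrophages (29.9 to 82.8 CPM). P2ry12 was at 6.1 to 7.3 CPM in the oligodendrocyte lineage (above in 4 of 4 libraries) and at 4.3 to 15.6 CPM in astroglia (3 of 4). In granule lineage cells, the most numerous neurons, Csf1r was above the gate ratio in 4 of 4 libraries by at most 1.62 times, at 1.8 to 12.9 CPM. Gpr34, P2ry12 and Cx3cr1 were above it there in 3 of 4, by at most 4.32, 4.29 and 1.91 times and at no more than 7.5 CPM. The exception was P10 WT, where they stood at 0.54, 0.62 and 0.78 times the gate ratio. The oligodendrocyte lineage also had Csf1r, Cx3cr1 and Gpr34 above that ratio in 3 of 4 libraries, by at most 2.15, 3.36 and 3.66 times. In P10 WT, Csf1r was above it in granule lineage cells, astroglia, oligodendrocyte lineage, endothelial cells and fibroblasts, by 1.46 to 1.71 times. Csf1r did not exceed it beyond counting error in the lymphoid cells (1.41) or GABAergic interneurons (0.80) of that library.

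**Figure D2:**
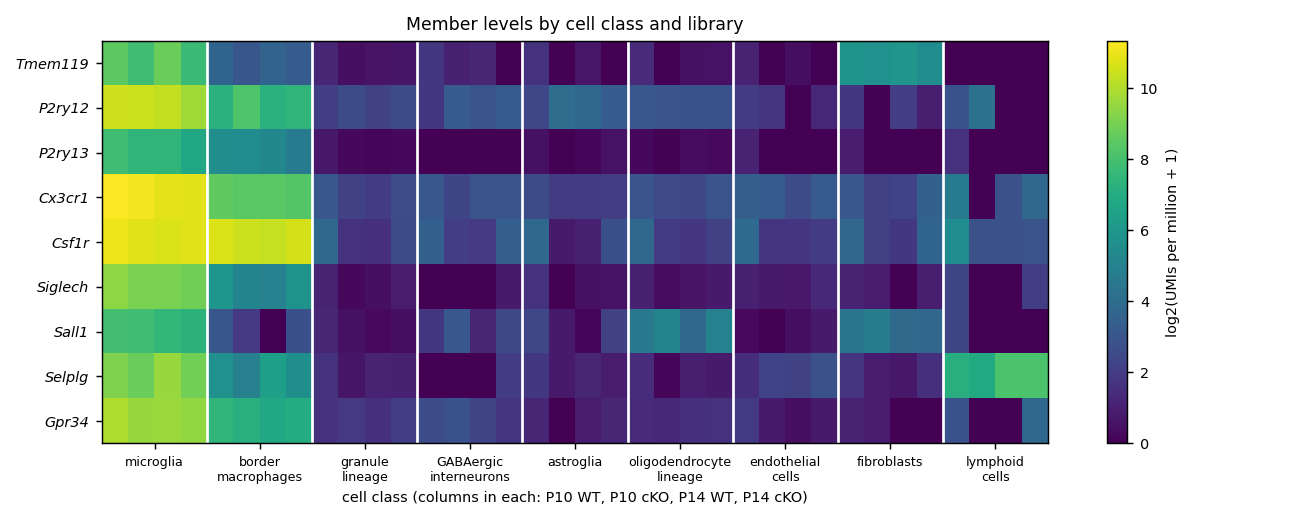
Level of each member (rows) in 9 gated cell classes, with 4 columns per class (WT and cKO at P10, then WT and cKO at P14); colour gives log2(CPM + 1). The leftmost block, microglia, is bright for all members. In border macrophages Csf1r is brightest (1307 to 1697 CPM), followed by Cx3cr1 (311 to 384), P2ry12 (148 to 294) and Gpr34 (110 to 170). Outside microglia and border macrophages, signals stand out for Tmem119 and Sall1 in fibroblasts, Sall1 in the oligodendrocyte lineage and Selplg in lymphoid cells.

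Single microglia carried most of the set at once. Cells were thinned to 2000 UMIs each so that depth was equal, which left 1025, 152, 556 and 341 microglia and dropped the shallower ones. The median number of members with a UMI was 6, 6, 6 and 5 of 9 in the same library order. At least 5 members were found in 83.3%, 69.1%, 82.4% and 65.4% of these cells, lower in both cKO libraries. Border macrophages had a median of 2 members in every library, and 93.9% to 97.7% of granule lineage cells had none. Tmem119 had a UMI in 45.0% and 52.9% of thinned WT microglia at P10 and P14, against 32.9% and 33.4% of cKO microglia; in granule lineage cells the share was 0.10% to 0.26%. P2ry13 had a UMI in 36.5%, 28.9%, 27.3% and 17.3% of microglia in the library order above. Csf1r and Cx3cr1 were found in 94.1% to 96.4% and in 88.6% to 93.8%.

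The P14 pair was written by the same program version and asks how the set stood in cKO against WT cerebella. There, 4 members were clearly lower in cKO microglia, 4 differed by less than 0.2 on the log2 scale, and Csf1r was slightly higher. Tmem119 was at 212 against 439 CPM, a log2 ratio of -1.05 (-1.15 to -0.95). Selplg had a ratio of -0.67 (-0.74 to -0.60), P2ry13 of -0.63 (-0.78 to -0.48) and P2ry12 of -0.55 (-0.61 to -0.50). Sall1 (-0.18), Siglech (-0.17) and Gpr34 (-0.13) were lower by less, with intervals below 0. Cx3cr1 was at -0.03 (-0.07 to 0.01), and Csf1r was at 0.09 (0.04 to 0.13). Tmem119 was 1 of 9 members at least 2-fold lower, where 1.99% of 12089 genes with at least 20 UMIs were. Intervals lay below 0 for 7 members and above 0 for 1. Among the 1297 genes with at least as many UMIs as the least counted member these shares were 45.5% and 29.3%.

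The median ratio of the 9 members was -0.18, beside -0.05 over all genes tested. Over the 1297 genes counted as well as the members it was -0.08, and 60.3% of these genes had ratios below 0. The lowest 4 stayed below 0 under each of the 17 settings run, with ranges of -1.23 to -0.94 for Tmem119, -0.84 to -0.61 for Selplg, -0.86 to -0.57 for P2ry13 and -0.69 to -0.45 for P2ry12. Thinning every cell to 2000 UMIs moved Sall1 to -0.47, Cx3cr1 to -0.21 and Gpr34 to -0.21. A list of 16 genes known to respond to dissociation, among them Fos, Jun, Hspa1a and the chemokines Ccl3 and Ccl4, summed to 25635 CPM in the microglia of P14 WT and to 20663 CPM in those of P14 cKO. Of the 16, Ccl3 (0.23) and Ccl4 (0.17) had intervals above 0 for cKO over WT and the other 14 had intervals below 0. Among microglia with less than 1% of UMIs in them (148 in P14 WT and 109 in P14 cKO), Tmem119 stood at -1.21 and P2ry12 at -0.65.

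**Figure D3:**
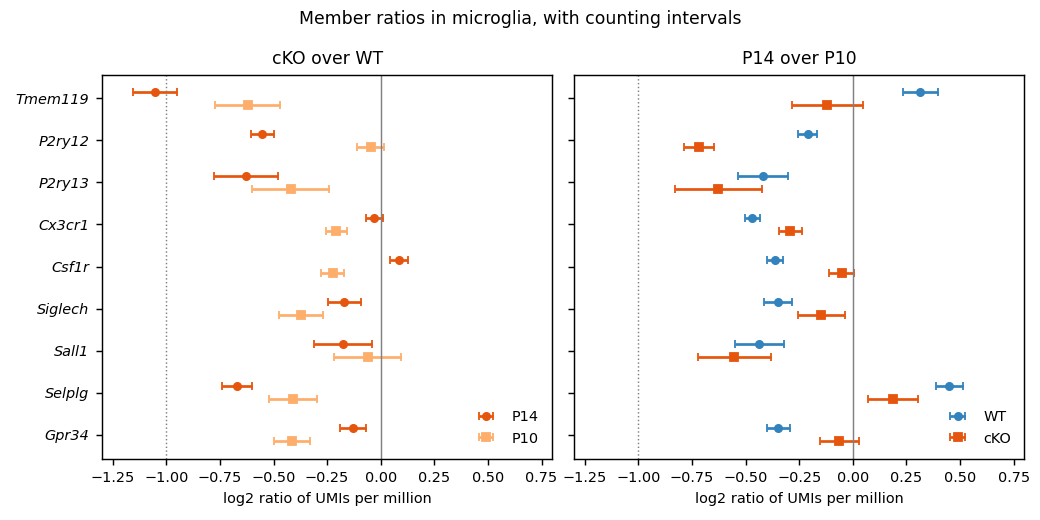
Log2 ratio of CPM in microglia (x axis) for each member, cKO over WT at P14 (circles) and P10 (squares) on the left, and P14 over P10 in WT (circles) and cKO (squares) on the right, with exact 95% counting intervals; the dotted line marks a 2-fold decrease. Tmem119 at P14 (-1.05) is the only point beyond it, and Csf1r is above 0 at P14 and below 0 at P10 for cKO over WT.

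At P10 all 9 ratios of cKO over WT were below 0, from -0.62 (-0.77 to -0.47) for Tmem119 to -0.05 (-0.11 to 0.02) for P2ry12. P2ry12 and Sall1 were above 0 in 2 and 3 of the 17 settings, up to 0.29 and 0.56. P2ry13, Gpr34 and Selplg stood at -0.42, -0.41 and -0.41, Siglech at -0.37, Csf1r at -0.22, Cx3cr1 at -0.21 and Sall1 at -0.06 with an interval that held 0. None was 2-fold lower, where 3.80% of 11598 genes were. Intervals lay below 0 for 7 members and above 0 for none, but this matches the background: of 625 genes with as many UMIs, 70.7% had intervals below 0 and 20.3% above, and their median was -0.38 beside -0.37 for the members. TMM factors shift all ratios of this pair by -0.21. The program version and the sex of the cells differed with genotype here, and neither can be told apart from it.

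Both ages together allow a test of genotype with age as a covariate and 1 residual degree of freedom. That degree of freedom is the difference of the genotype ratio between the ages, not a spread between replicates. The P10 pair brings its differences in program version and sex into the test, which cannot tell them apart from genotype. All 9 fold changes were below 0, from -0.89 (SE 0.54) for Tmem119 to -0.12 (SE 0.58) for Csf1r, with a median of -0.32. The median over all genes tested was 0.03. Of the genes counted as well as the members, 75.8% had ratios of cKO over WT below 0 at P10 and 60.3% at P14. No member was called, and 0% of 12232 genes were; 220 genes and none of the members had an unadjusted p under 0.05 in edgeR, and each member's adjusted p was 0.9998. DESeq2 called 3 genes, none of them a member. With 1 residual degree of freedom, the lack of a call does not show that the members were alike in both genotypes. Apart from Tmem119 (unadjusted p = 0.15), P2ry13 (0.29) and Selplg (0.33), every member had an unadjusted p above 0.5 in edgeR.

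From P10 to P14, the members did not move as a block. In WT microglia Selplg was higher at P14 by 0.45 on the log2 scale (0.39 to 0.51) and Tmem119 by 0.32 (0.23 to 0.40). The other 7 were lower, from -0.21 for P2ry12 to -0.47 for Cx3cr1. No member was 2-fold lower, where 6.89% of 12140 genes were, and of the 706 genes with as many UMIs 58.1% had intervals below 0 and 36.8% above. In cKO microglia Selplg was again higher (0.19, 0.07 to 0.31), while P2ry12 (-0.72), P2ry13 (-0.63), Sall1 (-0.55), Cx3cr1 (-0.29) and Siglech (-0.15) were lower and Tmem119, Csf1r and Gpr34 had intervals that held 0. None was 2-fold lower, where 7.74% of 11506 genes were; of 1463 genes with as many UMIs 32.5% had intervals below 0 and 36.2% above. The WT and cKO age ratios share no library, whereas each age ratio shares its libraries with the genotype ratios above. Under TMM factors the cKO ratios shift up by 0.22, which turns Siglech to 0.076. The WT comparison crosses program versions 5.0.0 and 7.1.0, and the cKO comparison crosses 7.0.1 and 7.1.0. The P10 and P14 cKO libraries also differed in sex markers, with Xist at 0.53 and 896 CPM and Ddx3y at 59.7 and 1.6 CPM over all cells. Age cannot be told apart from these differences.

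Within microglia, cells with phagocytic genes carried less of the resting set than their neighbours in the same library. Such cells had UMIs of at least 4 of 9 genes (Spp1, Gpnmb, Itgax, Lpl, Cst7, Igf1, Lgals3, Fabp5 and Cd9) at 2000 UMIs, and they made up 6.73% (69 cells), 6.58% (10), 2.70% (15) and 12.6% (43) of thinned microglia in the 4 libraries, in the order above. edgeR's quasi-likelihood test with the library as a block called 6 of 9 members lower, where 2.47% of 9641 genes were called lower. P2ry12 fell from 1546, 1448, 1285 and 920 CPM in the other microglia to 500.1, 823, 355 and 434 CPM, lower in 4 of 4 libraries without overlap (log2 -1.28, SE 0.15, adjusted p = 5.2e-06 in edgeR). Tmem119 fell from 375, 236, 451 and 233 CPM to 138, 158, 125 and 75.0 CPM (log2 -1.39, SE 0.18, adjusted p = 2.3e-05 in edgeR). Selplg fell to 208 to 278 CPM from 437 to 784 CPM (log2 -1.17, adjusted p = 2.8e-05 in edgeR). Siglech (-1.01) and P2ry13 (-0.95) were also called, and so was Cx3cr1 (-0.37, adjusted p = 0.034 in edgeR). Sall1 (-0.55, adjusted p = 0.13 in edgeR), Csf1r (-0.28, adjusted p = 0.20) and Gpr34 (-0.11, adjusted p = 0.71) were not, and Sall1 was higher in these cells in P10 cKO (log2 0.36). P2ry12, Tmem119, Selplg, Siglech and P2ry13 kept their calls under each of the 9 alternatives run. The call of Cx3cr1 was lost without P10 WT, P14 WT or P14 cKO (adjusted p = 0.080 to 0.25 in edgeR) and, at a log2 fold change of -0.41, with no border UMI (0.069), while Sall1 (adjusted p = 0.00025 in edgeR) and Csf1r (0.027) were called without P10 cKO, and Sall1 also with no filter on low counts (0.016). With these cells and cells under 2000 UMIs left out, the members' median for cKO over WT at P14 was -0.16. That setting is among those behind the ranges of Tmem119, Selplg, P2ry13 and P2ry12 given above for this pair. The part of phagocytic-gene-positive cells in the P14 ratios was not tested.

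Cycling microglia, with UMIs of at least 3 of 10 mitotic genes at full depth, made up 11.9%, 10.4%, 7.63% and 10.0% of all microglia in the same order and had deeper cells. Depth differed between libraries, so these shares do not compare cycling between them. The 10 genes summed to 511, 570, 484 and 348 CPM in the microglia, lowest in P14 cKO. The blocked test called 6 of 9 members lower in cycling cells, where 5.86% of 10070 genes were. P2ry12 had the smallest p, with 1012, 1043, 926 and 688 CPM in cycling and 1521, 1472, 1291 and 877 CPM in other microglia (log2 -0.50, SE 0.077, adjusted p = 0.00012 in edgeR). P2ry13 (-0.55), Siglech (-0.42), Selplg (-0.28), Cx3cr1 (-0.27) and Csf1r (-0.24) were called too, and Sall1 had the smallest difference (-0.17, adjusted p = 0.32 in edgeR). Without P14 WT 3 members were called, P2ry12, P2ry13 and Siglech. Csf1r lost its call without any 1 of the 4 libraries (adjusted p = 0.055 to 0.094 in edgeR), Selplg and Cx3cr1 lost theirs without some of them (adjusted p = 0.060 to 0.29 and 0.056 to 0.089 in edgeR). With no border UMI Siglech (-0.46, adjusted p = 0.069 in edgeR), Csf1r (-0.34, 0.11) and Selplg (-0.37, 0.16) lost theirs, with fold changes no smaller than in all microglia. Gpr34 (-0.25, adjusted p = 0.064 in edgeR) was called with DESeq2 (0.031), with no filter (0.0024), with upper quartile factors (0.015), with no border UMI (-0.53, 0.024), without Scrublet doublets (0.048) and without P10 cKO (0.0086). Tmem119 (adjusted p = 0.084 in edgeR) was called with no filter (0.017) and with upper quartile factors (0.027). Cycling cells had median depths of 8538 to 20552 UMIs against 6828 to 15675 in the others, and the part of depth in these differences was not tested.

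Interferon-positive microglia, with UMIs of at least 3 of 14 interferon-induced genes at 2000 UMIs, were 8 of 1025 thinned microglia in P10 WT (0.78%), 16 of 152 in P10 cKO (10.5%), 32 of 556 in P14 WT (5.76%) and 95 of 341 in P14 cKO (27.9%, exact binomial interval 23.2% to 32.9%). No member was called in them by edgeR, where 0.152% of 10542 genes were called lower, and DESeq2 called none either. Without P10 cKO, P2ry12 was called (adjusted p = 0.0027 in edgeR). All 9 fold changes were below 0, with a median of -0.18 beside -0.02 over all genes tested. In edgeR 813 genes had an unadjusted p under 0.05, 3 of them members: P2ry13 (-0.50), Tmem119 (-0.44) and P2ry12 (-0.41, but 0.27 in P10 cKO alone). Tmem119 was at 203, 184, 306 and 177 CPM in interferon-positive and at 357, 236, 450 and 227 CPM in other microglia. With interferon-positive cells and cells under 2000 UMIs left out, the members' median for cKO over WT at P14 was -0.15. For this pair, the ranges given above for Tmem119, Selplg, P2ry13 and P2ry12, all below 0, include this setting. The part of interferon-positive cells in the P14 ratios was not tested.

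**Figure D4:**
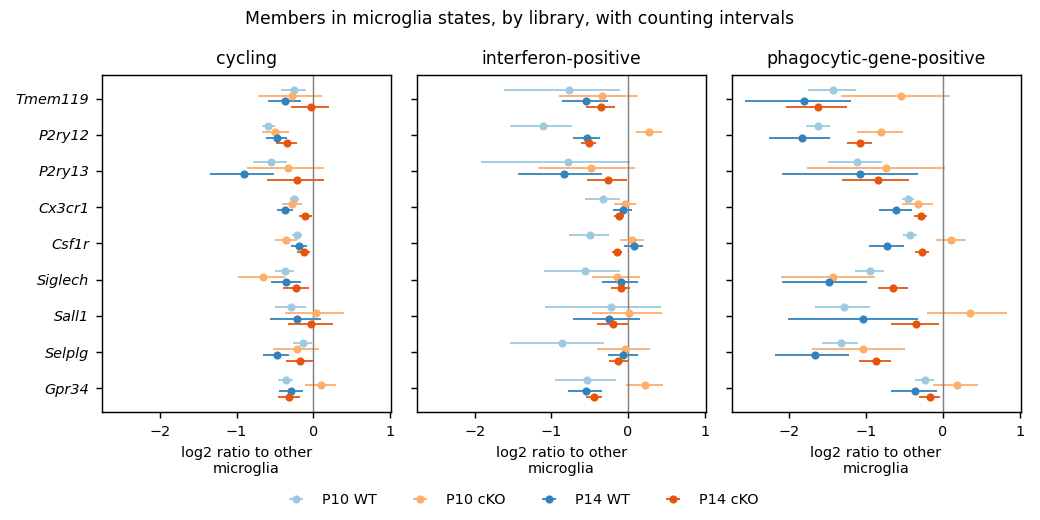
Log2 ratio of each member in cycling, interferon-positive and phagocytic-gene-positive microglia to the other microglia of the same library (x axis), 1 point per library with its exact 95% counting interval. In phagocytic-gene-positive cells P2ry12, P2ry13, Selplg, Siglech, Tmem119 and Cx3cr1 are below 0 in all 4 libraries (P2ry12 between -1.84 and -0.81); in interferon-positive cells most points lie closer to 0.

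Other genes of the microglial programme give the setting. Of 16 further identity genes, 9 had intervals below 0 and 3 above 0 in P14 cKO over WT, with a median of -0.18, the same as that of the members. The shares over well-counted genes given above for this pair were 45.5% and 29.3%. The fructose transporter Slc2a5 (-1.18) and the leukotriene synthase Ltc4s (-0.78) were lowest, and the adaptor Tyrobp (0.39) and its partner receptor Trem2 (0.25) were highest. Of 12 regulators of the lineage, 10 had intervals below 0 and 1 above 0 at P14; the growth factor receptor Tgfbr1 (-0.52) and the factor Cebpa (-0.46) were lowest, Irf8 stood at 0.01 and Bhlhe41 at 0.24. At P10 the regulators Runx1 (1.79) and Smad3 (2.02) stood far above 0 in cKO over WT, a pair that crosses program versions.

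Sources of the members' ligands were measured in the same libraries. Il34, a ligand of Csf1r, was found in fibroblasts at 231 to 288 CPM and at no more than 2.2 CPM in microglia, border macrophages, granule lineage, astroglia, oligodendrocyte lineage and endothelial cells. Csf1, the other ligand of Csf1r, was at 99.95, 246, 264 and 358 CPM in microglia, in the order above, with a log2 ratio of 0.44 (0.34 to 0.54) for cKO over WT at P14. Cx3cl1, the ligand of Cx3cr1, was highest in endothelial cells (10.1 to 19.4 CPM) and at most 0.15 CPM in granule lineage cells. Tgfb1, which sustains microglial identity, was at 263 to 405 CPM in microglia and 212 to 275 CPM in border macrophages. It was at 152 to 166 CPM in lymphoid cells and 66.1 to 113 CPM in endothelial cells. Tgfb2 was at 104 to 164 CPM in granule lineage cells. The selectin Selp, to which Selplg binds, had 0 UMIs in endothelial cells of all 4 libraries.

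Across 43 sums of a class in a library with at least 20 cells, the gene most like the mean of the members in log2(CPM + 1) was Crybb1 (Pearson r = 0.953), a crystallin found in microglia, followed by the lipid receptor Trem2 (0.942). Kcnk6, Cd300c2, Fcgr1, Gpr157, Tmem273, Cd68, Cryba4 and C5ar2 came next, the last with r = 0.930. Among the members, P2ry13 was most like the mean of the other 8 (r = 0.966) and Sall1 least (0.488), followed by Selplg (0.698) and Tmem119 (0.737). These correlations describe 4 libraries whose classes share depth and free RNA, and they carry no p.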

How the data were processed

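Droplet-based single-cell RNA was sequenced from dissociated cerebella, 1 library per group (WT and cKO at P10, WT and cKO at P14). The deposited matrices hold raw counts of UMIs per gene and barcode, without normalization; 158017834, 92315263, 145731767 and 91091692 UMIs in that order. Per the submitters' processing notes Cell Ranger 3.0.2, Seurat 4.1.3 and mm10 were used, whereas per the file headers the matrices came from Cell Ranger 5.0.0, 7.0.1 and 7.1.0. Whether intronic reads or strand were counted is not given in the sources used here.

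Cells with under 500 genes or over 20% mitochondrial UMIs were left out. Each of 11 other classes needed UMIs of at least 3 of its markers at 0.05% of UMIs. Cells that passed more than 1 gate were left out as mixed, which also served against doublets; Scrublet (Scanpy 1.11.5, score over 0.22) was an alternative. Classes with at least 20 cells in each library were compared. Ratios had 0.5 added to each count, and intervals and limits cover counting error only. Fits used edgeR 4.0.16 (R 4.3.3), the quasi-likelihood test after TMM scaling and filterByExpr (minimum count 10), with calls at an adjusted p of 0.05, and DESeq2 1.42.0 as an alternative. Both were tested on simulated data, where edgeR's genotype test recovered no planted change, unlike its blocked tests. Tables and figures used Python 3.11.15, SciPy 1.17.1 and matplotlib 3.10.9. Clec7a, the 10th gene of the phagocytic list, was not analysed here.

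The members and lists were chosen with earlier results of these data known. Named were all 9 members, of each list at most the 2 highest and 2 lowest ratios among genes with at least 20 UMIs, and the 10 genes most like the members. Ligands, Smad3, Runx1 and Eftud2 were named for their role or as a check. The labels name no separate animals, so p-values measure the spread between these libraries, which may be technical.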

Additional observations from a re-analysis of the deposited data

Results flagged for a closer look

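Csf1r had ratios of cKO over WT of opposite sign at the 2 ages in microglia. The log2 ratio was 0.085 at P14 (0.04 to 0.13) and -0.22 at P10 (-0.28 to -0.17). With 1 library per group the difference between the ages was not tested. Among microglia with less than 1% of UMIs in dissociation response genes (356 in P10 WT and 58 in P10 cKO) the P10 value was 0.0083.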

How the results depend on the processing

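The median log2 ratio of the members at P14 (-0.18) was -0.35 with border macrophages not split off, -0.47 with cells thinned to 2000 UMIs and -0.37 in cells low in dissociation response genes, an alternative chosen after seeing the data. At P10 (-0.37) it was -0.17 without the split, -0.22 thinned, -0.48 scaled without mitochondrial and ribosomal protein genes and -0.58 with TMM factors. For P14 over P10 in WT (-0.35) it was -0.48 scaled in that way, -0.18 in cells low in dissociation genes and 0.41 without the split. In cKO (-0.15) it was -0.27 without any border UMI, -0.38 thinned, 0.076 with TMM factors and 0.045 without the split. Without the split the sums hold border macrophages, whose share differed between libraries. The cause of the other shifts was not tested.

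Among ratios between libraries, members whose interval excluded 0 turned as follows. Without the split, Cx3cr1 turned to 0.028 for cKO over WT at P10; for P14 over P10 in WT, P2ry12 turned to 0.55, P2ry13 to 0.22, Cx3cr1 to 0.24, Siglech to 0.42, Sall1 to 0.41 and Gpr34 to 0.33; in cKO, Cx3cr1 turned to 0.028 and Siglech to 0.23. In cells low in dissociation genes Sall1 turned to 0.047 (P14 over P10, WT) and Csf1r to 0.0083 (P10). In cKO over age, Selplg turned to -0.0030 when thinned and Siglech to 0.076 with TMM factors. Leaving out 1 library at a time, fold changes in interferon-positive cells ranged from -0.19 to 0.00094 (Cx3cr1), -0.20 to 0.068 (Csf1r) and -0.28 to 5.1e-05 (Selplg), the highest each without P10 WT. Without any border UMI Gpr34 turned to 0.015 in phagocytic-gene-positive cells; none of these was called. Of 576 single ratios under an alternative, 452 stayed within the counting interval of the reported value, 111 moved beyond it and the 13 above, whose interval excluded 0, turned. Members whose interval held 0 also changed sign: at P10, Sall1 and P2ry12 were at 0.21 and 0.29 without the split and at 0.039 and 0.024 when thinned, and Sall1 was at 0.56 in cells low in dissociation genes; Cx3cr1 at P14 was above 0 in 2 settings, up to 0.014. In cKO over age, Tmem119, Gpr34 and Csf1r were above 0 in 5, 4 and 2 settings, up to 0.26, 0.23 and 0.17.

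Leaving out 1 library at a time, 8 to 9 members were called against border macrophages, 3 (without P14 WT) to 5 in cycling, 0 to 1 (without P10 cKO) in interferon-positive and 5 to 8 in phagocytic-gene-positive cells. Over all genes the calls were 3038 to 3642 (4125 with all libraries), 972 to 1300 (1549), 66 to 270 (194) and 294 to 781 (540) for these 4 tests, the lowest in turn without P10 WT, P14 WT, P14 cKO and P14 cKO; phagocytic-gene-positive cells gave 317 without P10 WT. The genotype test called 0 genes, but 3 with DESeq2, 145 with no filter and 104 with upper quartile factors, and no member in any. Without any border UMI, 689 genes were called in cycling and 356 in phagocytic-gene-positive cells; in interferon-positive cells 122 were called with DESeq2 and 310 with no filter. No paired analysis was possible because the labels give no replicate numbers by which to pair genotypes or ages; the tests between cell classes had the library as a block. The P10 cKO values rest on 163 microglia, which limits their precision.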
